A study of Mus musculus with 4 samples.

Results

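The mitochondrial genome of the mouse codes for 22 tRNAs, and 10 of them are encoded on the heavy-strand transcript in the intervals that separate 1 mRNA from the next. These are mt-Ti, mt-Tm, mt-Tw, mt-Td, mt-Tk, mt-Tg, mt-Tr, mt-Th, mt-Ts2 and mt-Tl2. They were chosen by gene name and by place in the genome, and they make up 10 of the 37 mitochondrially encoded genes and 10 of the 16472 genes in the deposited table. Each was compared between isolated mitochondria and the remaining tissue of skeletal muscle, and each was set against the mRNAs on either side of it.

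Skeletal muscle of wild-type (WT) mice was divided into mitochondria and the rest of the tissue by lysis and differential centrifugation, and total RNA of both was sequenced from a small input with a stranded kit. The 4 libraries are 2 of isolated mitochondria (SM-mito) and 2 with the treatment label tissue minus mitochondria, called remaining tissue here. The titles of the latter 2 read SM-total and a supplementary legend describes them as whole-muscle lysate, so it is not settled whether they hold whole or depleted muscle. Both groups carry the same genotype, the labels name no other treatment, and no age is given. By the study's methods for heart, isolated mitochondria were treated with digitonin and RNase A before RNA isolation. Whether the muscle mitochondria here had this step is not stated. No source used here says how many animals the libraries came from. The p-values below thus measure only the spread between these samples, which may be technical.

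Both strands of the mitochondrial genome are transcribed into long precursors that carry many genes. In the heavy-strand precursor tRNAs lie between most of the mRNAs, and their excision frees the mRNA ends, an arrangement known as the tRNA punctuation model. Mitochondrial RNase P cuts at the 5′ end of each tRNA and ELAC2 at its 3′ end, TRNT1 adds the terminal CCA, and the charged tRNAs then serve the mitochondrial ribosomes. Skeletal muscle is among the tissues most often affected by disease variants of mitochondrial tRNA genes.

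All 10 genes lie on the plus strand of chromosome M of GRCm38, and each fills its own single exon. Between mt-Nd1 and mt-Nd2 are mt-Ti (ENSMUSG00000064342, isoleucine, 3706 to 3774) and mt-Tm (ENSMUSG00000064344, methionine, 3845 to 3913). Then come mt-Tw (ENSMUSG00000064346, tryptophan, 4950 to 5016) between mt-Nd2 and mt-Co1, mt-Td (ENSMUSG00000064353, aspartate, 6942 to 7011) between mt-Co1 and mt-Co2, and mt-Tk (ENSMUSG00000064355, lysine, 7700 to 7764) between mt-Co2 and mt-Atp8. Next are mt-Tg (ENSMUSG00000064359, glycine, 9391 to 9458) between mt-Co3 and mt-Nd3 and mt-Tr (ENSMUSG00000064361, arginine, 9808 to 9875) between mt-Nd3 and mt-Nd4l. The interval between mt-Nd4 and mt-Nd5 holds a row of 3 genes, mt-Th (ENSMUSG00000064364, histidine, 11546 to 11612), mt-Ts2 (ENSMUSG00000064365, serine, 11613 to 11671) and mt-Tl2 (ENSMUSG00000064366, leucine, 11671 to 11741).

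The sequences of the 7 genes on which the results turn are shown as gene sequences of GENCODE M21, 5′ to 3′, with the anticodon in capitals. They are the pair of 1 interval that differed most in its response (mt-Ti and mt-Tm), those with the strongest fall against the mRNAs (mt-Tw and mt-Tr), those above the mean mRNA level (mt-Tk and mt-Tg) and the lowest (mt-Ts2). The anticodon was found as the middle of a 7-base loop closed by a stem of up to 5 pairs, of which mt-Tw had 3 and mt-Ts2 had 4. The search required at least 3 pairs, a pyrimidine as the second loop base, and an anticodon for the amino acid in the gene's name. The match to the amino acid was thus set beforehand.
mt-Ti: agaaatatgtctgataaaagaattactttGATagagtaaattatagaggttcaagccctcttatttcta
mt-Tm: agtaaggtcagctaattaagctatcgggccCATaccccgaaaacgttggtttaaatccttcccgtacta
mt-Tw: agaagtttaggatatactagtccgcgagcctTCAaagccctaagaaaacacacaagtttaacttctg
mt-Tk: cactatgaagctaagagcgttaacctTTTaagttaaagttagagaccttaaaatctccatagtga
mt-Tg: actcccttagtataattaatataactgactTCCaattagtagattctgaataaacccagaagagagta
mt-Tr: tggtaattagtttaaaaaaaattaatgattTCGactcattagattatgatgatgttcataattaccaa
mt-Ts2: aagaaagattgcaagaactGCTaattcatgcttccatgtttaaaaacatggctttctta
The 10 genes are 59 to 71 nt long, and the shortest is mt-Ts2, a tRNA known to lack the D arm. Their GC content runs from 17.1% in mt-Td to 44.9% in mt-Tm.

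Mitochondrially encoded genes took 95.3% and 94.1% of all counts in isolated mitochondria and 22.3% and 20.5% in remaining tissue. The depth of the SM-mito libraries was 42749263 and 35306106 assigned reads. For the SM-total libraries it could only be estimated, at 15704036 and 15301865. The replicates of isolated mitochondria were less alike (Pearson's r of log2 values over the 16472 genes, 0.71) than those of remaining tissue (0.98). Counts of the 8 muscle fiber markers, such as Acta1 and Ckm, made up 23.8% and 23.6% of all counts in remaining tissue and 0.0172% and 0.0323% in isolated mitochondria, and all 8 were above 0 in every library. Markers of endothelium, fibroblasts, blood, Schwann cells and adipocytes summed to 0.000853% to 0.0605% a list in remaining tissue and to at most 0.00816% in isolated mitochondria, where 1 of the 3 Schwann cell markers was above 0, and their part in the results was not tested.

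On the deposited scale, on which each library was divided by a size factor over all genes, all 10 tRNAs were called higher in isolated mitochondria, beside 7.32% of all genes tested. With libraries scaled to the total of all genes instead, 3 stayed called (mt-Tm, mt-Tk and mt-Ts2) and 7 did not. On that scale 0.549% of all genes tested were called higher and 96.8% lower. The log2 differences of mt-Tw and mt-Tr turned negative, at -0.80 and -0.60, under that scaling, which also took the median over all genes tested from -0.44 to -6.90. Values are given as normalized counts, the unit of the deposited table, followed by the log2 difference of isolated mitochondria minus remaining tissue on log2(value + 1), its standard error (SE) and the adjusted p of limma with Benjamini-Hochberg adjustment over 6916 genes.

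mt-Ti, which reads isoleucine codons, had 45 and 43 normalized counts in remaining tissue and 9565 and 5727 in isolated mitochondria. The log2 difference was 7.36 (SE 0.30, adjusted p = 0.00317). Its neighbor mt-Tm, the single methionine tRNA of mouse mitochondria, which serves initiation and elongation alike, had 412 and 361 against 199399 and 121485. With 8.65 (SE 0.30, adjusted p = 0.00280), its log2 difference was the largest of the 10. mt-Tm was above mt-Ti in each of the 4 libraries.

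mt-Tw, which reads UGA as well as UGG as tryptophan in mitochondria, had 111 and 113 normalized counts in remaining tissue and 10868 and 5433 in isolated mitochondria. Its log2 difference of 6.09 (SE 0.38, adjusted p = 0.00780) was the smallest of the 10. mt-Td, the tRNA for aspartate, had 28 and 22 against 6515 and 4670, a difference of 7.74 (SE 0.26, adjusted p = 0.00269). In both genes every library of isolated mitochondria lay far above every library of remaining tissue.

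mt-Tk, the lysine tRNA whose human counterpart carries the classic MERRF variant, had 827 and 727 normalized counts in remaining tissue and 299487 and 172637 in isolated mitochondria. The log2 difference was 8.19 (SE 0.33, adjusted p = 0.00317). mt-Tg, the tRNA for glycine, had 2000 and 1451 against 343953 and 385535, a difference of 7.74 (SE 0.25, adjusted p = 0.00269), and was the highest of the 10 in all 4 libraries. mt-Tr, the tRNA for arginine, had 53 and 36 against 3475 and 3390, with a difference of 6.26 (SE 0.25, adjusted p = 0.00317). mt-Tg and mt-Tr lie on either side of mt-Nd3, and mt-Tg was far above mt-Tr in every library.

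mt-Th, the tRNA for histidine, had 439 and 408 normalized counts in remaining tissue and 142464 and 50687 in isolated mitochondria. With 7.65 (SE 0.54, adjusted p = 0.00840) its log2 difference had the largest SE of the 10, since replicate 1 of isolated mitochondria stood well above replicate 2. mt-Ts2, which reads serine codons of the AGY family, had 6 and 5 against 2507 and 1336 (8.14, SE 0.38, adjusted p = 0.00359). mt-Tl2, which reads leucine codons of the CUN family, had 21 and 17 against 3022 and 2611 (7.14, SE 0.22, adjusted p = 0.00269). The remaining tissue values of mt-Ts2 correspond to an estimated 42 and 35 reads, so its difference is the least precisely counted.

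None of the 10 overlapped between groups, beside 25.5% of all genes tested with isolated mitochondria above remaining tissue in every library, and 9.3% of all genes were called lower. Since 37 of 37 mitochondrially encoded genes were called higher, these counts say nothing particular about the 10. mt-Ts2 and mt-Tl2, with remaining tissue means of 5.5 and 19, passed the required mean of 20 only through isolated mitochondria, whereas the other 8 reached it in remaining tissue alone. The median log2 difference was 7.69 for the 10 tRNAs, 8.78 for the 13 mRNAs and -0.44 for all genes tested. In bulk RNA, more organelles in a sample and more of a transcript per organelle cannot be told apart.

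**Figure D1:**
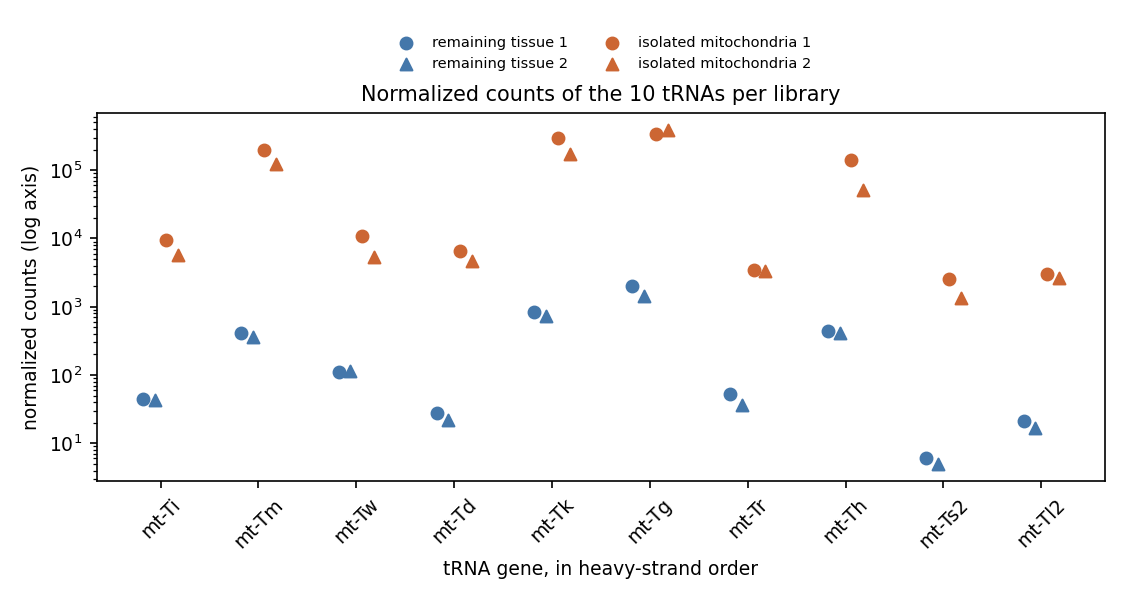
Normalized counts (log axis) of the 10 tRNAs in the 2 libraries of remaining tissue and the 2 of isolated mitochondria, 1 point a library. All libraries of isolated mitochondria lie above those of remaining tissue, from 1336 for mt-Ts2 to 385535 for mt-Tg.

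To compare genes with each other, counts were divided by gene length and written as a percent of the mean mitochondrial mRNA, that is, of the summed counts of the 13 mRNAs over their summed length. This mean may be counted short because of nuclear copies, as given below, which would make the levels too high. On this scale the 10 tRNAs spanned a wide range although all are cut from the same precursor. The highest exceeded the lowest by 289- and 252-fold in the libraries of remaining tissue and by 119- and 250-fold in those of isolated mitochondria. mt-Tm, mt-Tk, mt-Tg and mt-Th together held 92.6% to 96.9% of the counts of the 10.

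In remaining tissue mt-Tg stood at 359% and 284% of the mean mRNA and mt-Tk at 155% and 149%, the only members above that mean. mt-Th followed with a mean of 80.5%, mt-Tm with 71.3% and mt-Tw with 21.3%, and the libraries of these neighbors in the order did not overlap. mt-Tr (mean 8.28%) and mt-Ti (8.13%) could not be ordered, since their libraries overlapped. mt-Td (4.53%), mt-Tl2 (3.40%) and mt-Ts2 (1.18%) came last, each without overlap with the next.

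In isolated mitochondria mt-Tg was again first, at 115% and 225%, then mt-Tk at 104% and 106%. mt-Tm (mean 67.7%) now stood above mt-Th, whose replicates were 48.2% and 30.1%. A gap followed, and the other 6 lay at 3.45% or less: mt-Tw (3.45%) overlapped with mt-Ti (3.22%), mt-Td stood at 2.38%, mt-Tr (1.57%) overlapped with mt-Tl2 (1.21%), and mt-Ts2 was last at 0.93%. The order was much alike in the 2 fractions (Pearson's r of log2 levels 0.96 and Spearman's rho 0.95 over the 10 genes, which share libraries and precursor). Among all 22 tRNAs, mt-Tg took rank 1 in both libraries of remaining tissue and rank 2 in both of isolated mitochondria, mt-Tk took rank 3 in all 4, and mt-Ts2 took rank 20 or 21.

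**Figure D2:**
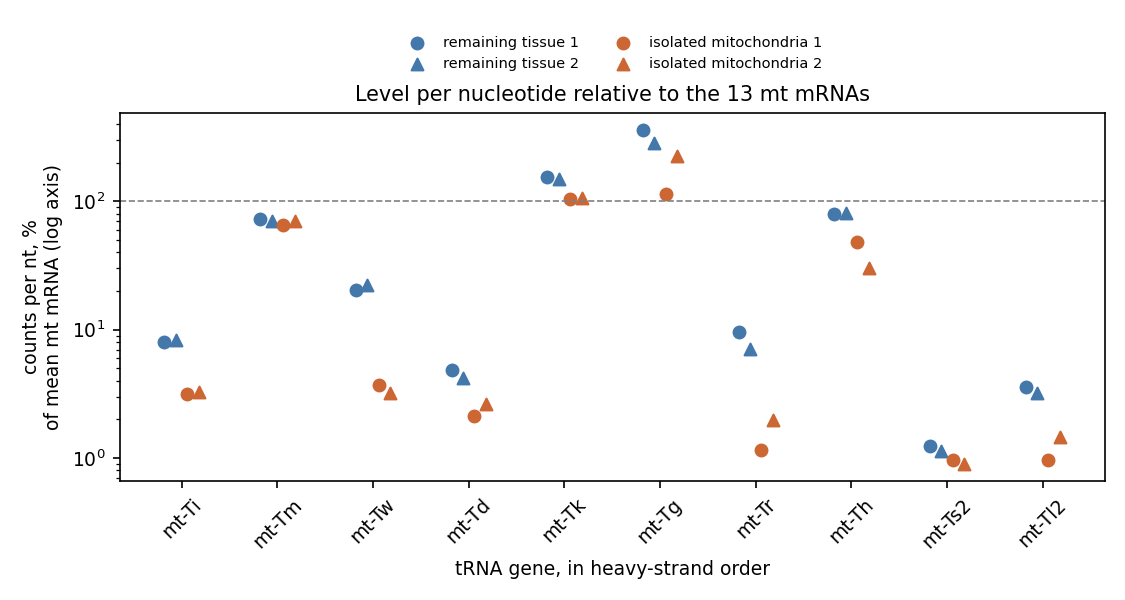
Counts per nt of each of the 10 tRNAs as a percent of the mean mitochondrial mRNA (log axis), 1 point a library, for remaining tissue and isolated mitochondria. On the counts as deposited, mt-Tg and mt-Tk lie above 100% in every library, and mt-Ts2 lies near 1% in all 4.

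The question of whether the tRNAs kept step with the mRNAs was addressed by scaling each library to the total of its 13 mitochondrial mRNAs before the same limma fit. Relative to the mRNAs, 6 of the 10 fell in isolated mitochondria, mt-Tw and mt-Tr most, with mt-Ti, mt-Tl2, mt-Th and mt-Tg after them. The remaining 4 did not pass the test. As background, 98.1% of all genes tested were called lower and 0.101% higher on this scale, and 98.5% were lower without overlap, since nuclear transcripts were scarce beside the mRNAs in isolated mitochondria. Among the 27 other mitochondrially encoded genes 29.6% were called lower, 11.1% higher, and 40.7% were lower without overlap. These 27 include the 13 mRNAs whose total the scaling made equal, so they are no background for tRNAs alone. The calls of the other tRNAs are given by class below. The difference was negative for all 10, with a median of -1.04, except that mt-Tm was at 0.056 when the mRNAs with near-identical nuclear copies were left out of the total.

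mt-Tw went from 20.2% and 22.5% of the mean mRNA in remaining tissue to 3.68% and 3.22% in isolated mitochondria. The log2 difference was -2.63 (SE 0.37, adjusted p = 0.000778). mt-Tr went from 9.51% and 7.06% to 1.16% and 1.98% (-2.43, SE 0.47, adjusted p = 0.00317). These were the strongest falls, and the groups lay far apart in both genes.

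mt-Tl2 went from 3.61% and 3.19% to 0.96% and 1.46% (-1.51, SE 0.42, adjusted p = 0.0149). mt-Ti went from 7.95% and 8.31% to 3.14% and 3.30% (-1.33, SE 0.38, adjusted p = 0.0160). In both genes the 2 groups were apart by more than the spread of their replicates. mt-Th fell from 79.9% and 81.2% to the unequal 48.2% and 30.1% (-1.08, SE 0.34, adjusted p = 0.0234), and mt-Tg from 359% and 284% to 115% and 225% (-0.99, SE 0.36, adjusted p = 0.0402). For mt-Th and mt-Tg the groups did not overlap, but the replicates of isolated mitochondria lay far apart. The call of mt-Tg was lost under 5 of 14 alternatives, in which its adjusted p was 0.056 without a filter, 0.085 without the trend, 0.072 with mRNAs that lack nuclear copies, 0.071 with edgeR on reads and 0.21 with DESeq2 on reads (range over the 14, 1.81e-05 to 0.21).

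mt-Td, from 4.88% and 4.19% to 2.11% and 2.65%, missed the threshold (-0.93, SE 0.40, adjusted p = 0.0654). mt-Tk, from 155% and 149% to 104% and 106%, missed it as well (-0.54, SE 0.21, adjusted p = 0.0534), although in both genes the libraries did not overlap. mt-Ts2, at 1.24% and 1.13% against 0.96% and 0.90%, had a difference of -0.34 (SE 0.35, adjusted p = 0.368). mt-Tm, at 72.8% and 69.7% against 65.5% and 69.9%, had the smallest difference (-0.07, SE 0.25, adjusted p = 0.782) and was the only one of the 10 whose groups overlapped.

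By class, lower calls went to 3 of the 4 other heavy-strand tRNAs (mt-Tf, mt-Tv, mt-Tl1 and mt-Tt, median log2 difference -1.53). They also went to 3 of the 8 light-strand tRNAs (median -0.30) and 2 of the 13 mRNAs (median 0.05). These mRNAs were mt-Nd2 at -0.47 and mt-Nd5 at -0.26, whereas mt-Nd4l was only just called higher (0.43, adjusted p = 0.0499 by limma). All 3 flank members of the 10. The light-strand mt-Tp, which is encoded opposite the heavy-strand genes near the control region, was called higher at 1.55. Whether the 10 differ from these classes was not tested.

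The count of 6 depends on the test, and DESeq2 on reads called 2 (mt-Tw and mt-Tr). With a library left out, the spread came only from the group that kept 2, so calls of these fits are not compared. All 10 differences stayed negative in them. They ranged from -2.72 to -2.53 for mt-Tw and from -1.37 to -1.30 for mt-Ti, but from -1.48 to -0.50 for mt-Tg. The fragmentation time was adjusted for mitochondrial samples, so fragmentation and the compartment cannot be told apart. The same holds for an RNase A step, if the mitochondria had it.

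**Figure D3:**
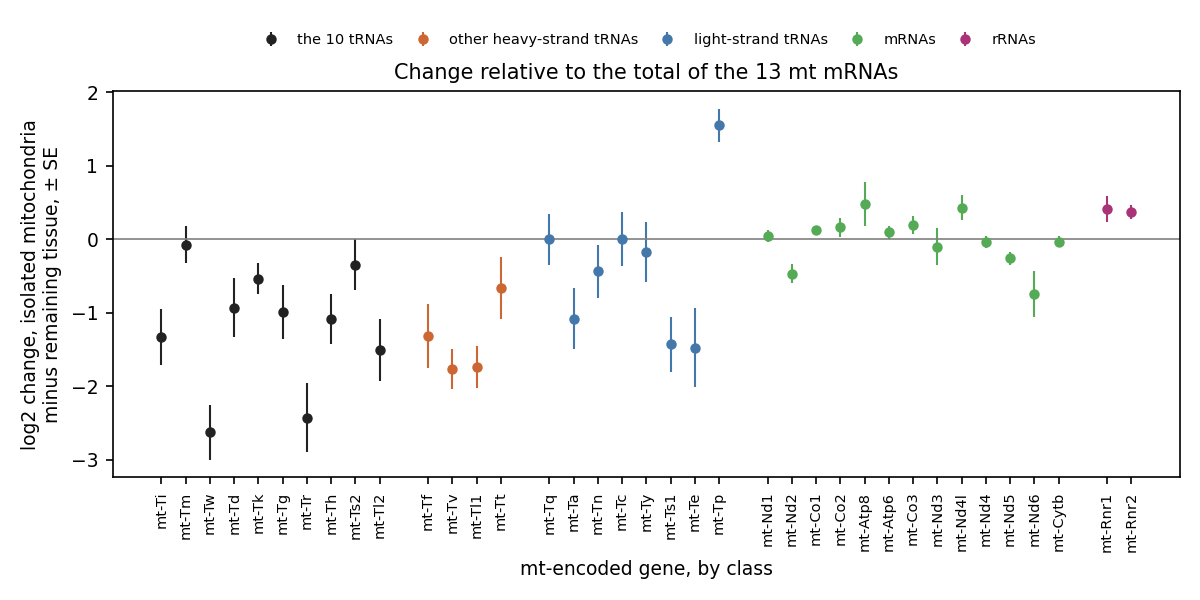
Log2 difference of isolated mitochondria minus remaining tissue relative to the 13 mitochondrial mRNAs, with bars of 1 SE from limma. The 10 tRNAs are shown with the 27 other mitochondrially encoded genes, by class. The points of the 10 tRNAs all lie below 0, from -2.63 for mt-Tw to -0.07 for mt-Tm. Points of other classes lie on both sides of 0, with mt-Tp at 1.55.

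Each tRNA was then related to the mRNAs that flank it, within each library, so that the library scale drops out. The ratio is the counts per nt of the tRNA as a percent of the mean counts per nt of its upstream and downstream mRNA. For 8 of the 10 both libraries of isolated mitochondria lay below both of remaining tissue by more than the rounding of the deposited values. The exceptions were mt-Tm, whose groups overlapped, and mt-Ts2, whose groups were apart only within that rounding. No other gene of the table was set against flanks in this way, so the count has no background. The median log2 difference of the ratios over the 10 was -1.10. With 2 libraries a group, an exact two-sided permutation test cannot go below p = 0.33, and none is given.

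The interval between mt-Nd1 and mt-Nd2, both subunits of complex I, held a tRNA that dropped against the mean of its flanks and another that did not. mt-Ti stood at 7.35% and 7.52% of its flanks in remaining tissue and at 2.95% and 3.49% in isolated mitochondria, a log2 difference of -1.21. mt-Tm stood at 67.3% and 63.1% against 61.4% and 74.1%, a difference of 0.05, with the groups overlapping. The result for mt-Tm depends on the flank, at -0.12 against mt-Nd1 alone and 0.39 against mt-Nd2 alone. Against mt-Nd2 it went from 89.6% and 84.0% to 100% and 130%, without overlap. mt-Ti was lower against either flank, at -1.38 for mt-Nd1 and -0.87 for mt-Nd2. Per nt, mt-Tm exceeded mt-Ti by 9.16- and 8.40-fold in remaining tissue and by 20.8- and 21.2-fold in isolated mitochondria, so the gap within 1 interval widened by more than the spread of the replicates.

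mt-Tw stood at 14.4% and 16.5% of the mean of mt-Nd2 and mt-Co1 in remaining tissue and at 2.68% and 2.40% in isolated mitochondria, a difference of -2.61. Against mt-Nd2 alone it went from 24.9% and 27.1% to 5.62% and 5.97%. mt-Td stood at 3.91% and 3.43% of mt-Co1 and mt-Co2, which code for the catalytic subunits of complex IV, and at 1.57% and 1.94% in isolated mitochondria (-1.07). Both tRNAs were thus far below their flanks in either fraction, and lower still in isolated mitochondria.

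mt-Tk exceeded its flanks mt-Co2 and mt-Atp8 in every library, with 357% and 300% in remaining tissue and 161% and 205% in isolated mitochondria (-0.85). mt-Tg was farther above its flanks than any other member, at 1068% and 786% against 293% and 602% (-1.13). Nuclear copies of mt-Co2, mt-Co3 and mt-Nd3 had counts close to theirs, as given below, so percents against these flanks may be too high. The downstream flank of mt-Tg, mt-Nd3, a small complex I subunit, was low. Against the upstream mt-Co3 alone mt-Tg reached 675% and 507% in remaining tissue and 178% and 372% in isolated mitochondria. mt-Tr, on the other side of mt-Nd3, stood at 29.5% and 20.4% against 2.84% and 4.60%, the largest drop of all at -2.76. The ratio of mt-Tg to mt-Tr per nt rose from 37.7 and 40.3 to 99.0 and 114.

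In the row between mt-Nd4 and mt-Nd5, mt-Th was level with its flanks in remaining tissue, at 100.1% and 100.8%, and below them in isolated mitochondria, at 68.3% and 40.8% (-0.93). mt-Ts2 stood at 1.55% and 1.40% against 1.37% and 1.22% (-0.19). The latter groups cannot be called apart, since the deposited value of 5 in replicate 2 of remaining tissue was rounded and stands for 1.26% to 1.54%. mt-Tl2 stood at 4.52% and 3.96% against 1.37% and 1.98% (-1.36). Although the 3 genes follow each other with no spacer, mt-Th exceeded mt-Ts2 by 64.4- and 71.9-fold per nt in remaining tissue and by 50.04- and 33.4-fold in isolated mitochondria. mt-Tl2 exceeded mt-Ts2 by 2.91- and 2.83-fold against 1.00- and 1.62-fold.

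**Figure D4:**
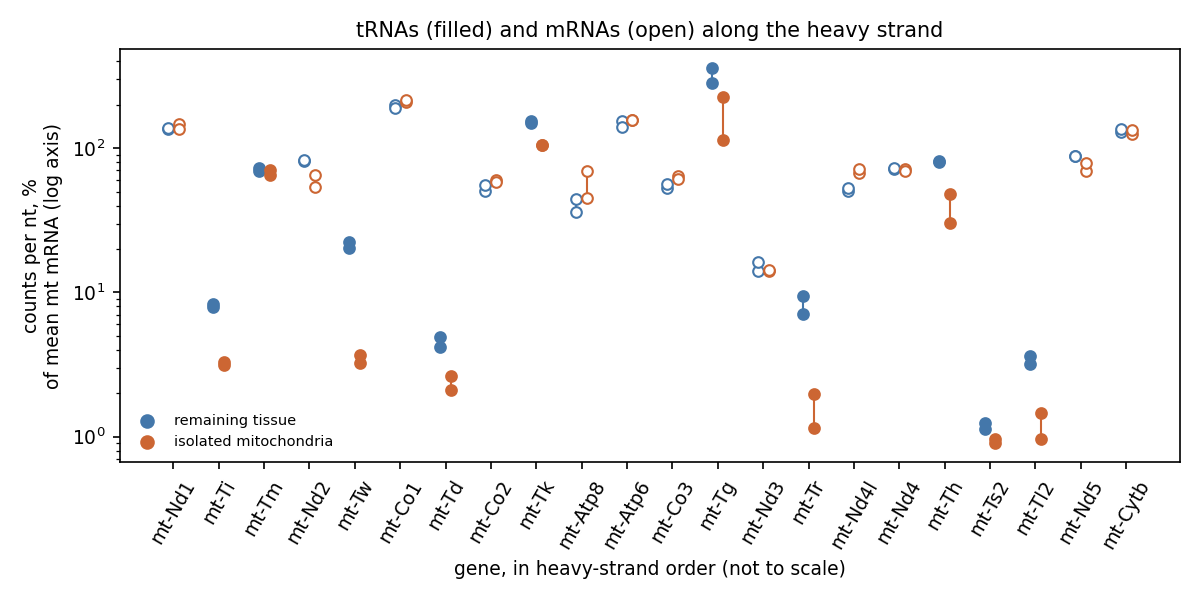
Counts per nt of the heavy-strand genes in transcription order as a percent of the mean mitochondrial mRNA (log axis), for remaining tissue and isolated mitochondria, 1 point a library and a line between replicates. The 10 tRNAs (filled) stand above, near or far below their flanking mRNAs (open), from mt-Tg (mean 170% in isolated mitochondria) to mt-Ts2 (mean 0.93%).

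Summed, the 10 tRNAs took 0.793% (95% Wilson interval 0.784 to 0.803) and 0.714% (0.705 to 0.724) of mitochondrially encoded reads in remaining tissue and 0.277% (0.275 to 0.279) and 0.448% (0.446 to 0.451) in isolated mitochondria. These intervals cover counting error only, and the replicates of isolated mitochondria differed by more. Of the counts on all 22 tRNAs, the 10 held 56.3% and 54.8% in remaining tissue and 47.1% and 46.9% in isolated mitochondria. Both shares were lower in isolated mitochondria, without overlap, but the second turned when 1 other tRNA, mt-Tp, was left out of the 22. Without mt-Tp, which had 505 and 398 normalized counts in remaining tissue and 676831 and 461230 in isolated mitochondria, the 10 held 60.7% and 58.8% against 68.5% and 65.8% of the tRNA counts, that is, more in isolated mitochondria. This alternative was chosen after seeing the data. As a share of all counts it was higher in isolated mitochondria, at 0.264% and 0.422% against 0.177% and 0.147%.

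Reads that overlapped more than 1 gene were left out by the authors, which bears on genes as short as these. Reads were 75 nt long before trimming. mt-Tk, mt-Tg, mt-Tr, mt-Th, mt-Ts2 and mt-Tl2 abut their neighbors so closely that a read of 75 nt has 0 places at which it touches the tRNA and no other gene. mt-Ti, mt-Tm, mt-Tw and mt-Td have 63 to 66 such places if strand was used in counting and 0 if it was not, because light-strand tRNAs lie beside them. On the same strand each has a spacer of 69 to 311 nt beside it. A read of 75 nt is longer than any of these tRNAs, so at such a place it covers spacer too. Counts on the former 6 can thus come from shorter or partly aligned reads alone, and a read that spans an uncut junction with a neighboring gene was not counted for either.

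Genes with nearly equal numbers of places had very different levels. For reads of 30 nt, mt-Tg, mt-Th and mt-Tr have 39, 39 and 41 places, yet in remaining tissue their levels were 322%, 80.5% and 8.28%. The lowest in level, mt-Ts2, also has the fewest places of the 10, with 29 for reads of 30 nt and 9 for reads of 50 nt. Across the 10 genes, which share libraries, the correlation of places for 30-nt reads with level was -0.02 in remaining tissue and -0.05 in isolated mitochondria with strand, and 0.32 and 0.27 without it (Pearson's r, n = 10). For GC content it was 0.40 in remaining tissue and 0.42 in isolated mitochondria, and for length 0.18 and 0.07. These are on log2 levels. Spearman's rho was 0.28 and 0.33 for GC content but -0.28 and -0.16 for length, so the sign for length depends on the coefficient.

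**Figure D5:**
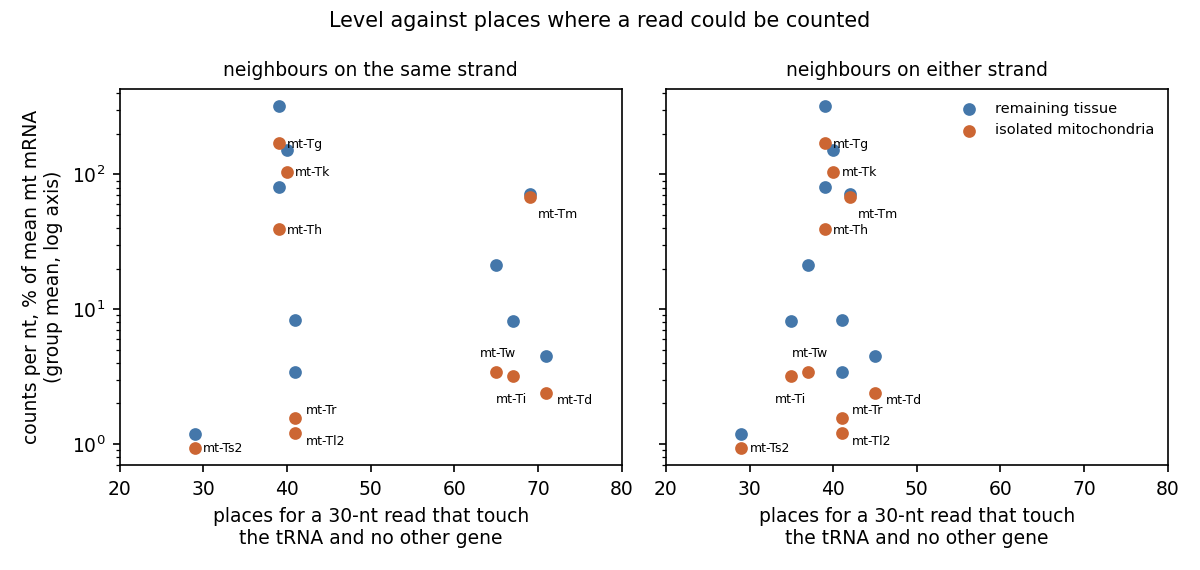
Group mean level (percent of the mean mitochondrial mRNA per nt, log axis) against the number of places for a 30-nt read that touches the tRNA and no other gene, counting neighbors on the same strand (left) or either strand (right). mt-Tg, mt-Tk and mt-Tl2 have nearly equal numbers of places and levels from 322% to 3.40% in remaining tissue.

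By the study's methods, reads that aligned to more than 1 place were left out too. Yet nuclear copies of mt-Co2, mt-Atp6, mt-Co3, mt-Nd3 and mt-Nd4l had counts close to those of the mt genes. Gm28437, 100% identical to mt-Co3 over 783 nt, had 3428 and 3323 normalized counts in remaining tissue, beside 3415 and 3297 for mt-Co3. Gm28661, 100% identical to mt-Co2 over 681 nt, had 2954 and 2891 there, beside 2848 and 2831 for mt-Co2. Counts of such a pair cannot be told apart, and how its reads were shared out was not tested. In all, 7 of the 13 mRNAs carry 100 nt or more that are 98% identical to annotated nuclear transcripts or closer. These are mt-Co1, mt-Co2, mt-Atp6, mt-Co3, mt-Nd3, mt-Nd4l and mt-Nd4. Flanks of mt-Tw, mt-Td, mt-Tk, mt-Tg and mt-Tr and of the row behind mt-Nd4 may thus be counted short. The mean mRNA may be counted short as well. Whether mt-Tg and mt-Tk would stay above a mean that includes the copies was not tested. Without mt-Co1, mt-Tw stood against mt-Nd2 alone as given above. None of the 10 tRNAs had a stretch of at least 30 nt at 90% identity in other annotated transcripts, and genome sequence outside transcripts was not analysed here. With libraries scaled to the 6 mRNAs without such copies, 5 of the 10 tRNAs were called lower in place of 6.

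Nuclear genes whose products act on these tRNAs were examined as 1 list of 15, made of the cleavage and CCA addition genes Trmt10c, Hsd17b10, Prorp, Elac2 and Trnt1 and the synthetases for the amino acids of the 10. In the fit on the deposited scale 7 of the 15 passed the required mean, 1 was called higher and 0 lower, with a median log2 difference of -0.52 beside -0.44 for all genes tested. The gene called higher was Lars2, the mitochondrial leucyl-tRNA synthetase, with 189 and 225 normalized counts in remaining tissue and 480 and 521 in isolated mitochondria (log2 difference 1.27, adjusted p = 0.0286 by limma). These 480 and 521 correspond to 53 and 103 reads. The other 14 had at most 25 reads in a library of isolated mitochondria. Elac2, which cuts the 3′ end, had 43 and 43 against 45 and 5 normalized counts, and Trnt1 had 19 and 19 against 54 and 25. Neither passed the test.

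The tested genes whose pattern over the 4 libraries was most like the mean of the 10 were the light-strand mt-Ta (Euclidean distance of centered log2 values 0.41), the heavy-strand mt-Tf (0.48), Gm11407 (0.50) and the light-strand mt-Ts1 (0.51). Gm11407 is annotated on chromosome 4 as a processed pseudogene and shares 1058 nt at 92.3% identity with mt-Nd5. Since all mitochondrially encoded genes moved together on this scale, the distances rest on small differences between them.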

How the data were processed

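RNA-seq libraries of isolated mitochondria and of remaining tissue of mouse skeletal muscle were analyzed (n = 2 and 2), grouped by the treatment labels. According to the submitters' processing notes, the authors used Trimmomatic 0.39 for trimming, STAR 2.7.10a for alignment to mm10, featureCounts 2.0.2 for counting, and DESeq2 1.30.1, whereas the study's methods name other versions of the last 3 tools. By those methods, counting was over exons and left out reads on several genes or places. The counts on nuclear copies given above are at odds with the exclusion of reads on several places. The strand setting and the rule for keeping genes were not given in the sources used here. The deposited values are a signal per gene, namely the authors' gene counts divided by a size factor and rounded.

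Values under 2000 of the SM-mito libraries came out as whole reads, within 0.5 normalized counts, at 9.049 (replicate 1, 99.95% of values) and 5.059 (replicate 2, 99.97%) normalized counts a read. The SM-total libraries hold an estimated 7.05 reads per normalized count, so rounding hides differences of a few reads. Genes with a mean of at least 20 (6916 of 16472) were tested on log2(value + 1) with limma 3.58.1 (lmFit, eBayes with trend, two-sided) in R 4.3.3, with Benjamini-Hochberg adjustment and a threshold of 0.05, on the deposited scale and after scaling to the 13 mt mRNAs. The pseudocount understates changes of low genes. Sequences and gene lengths came from GENCODE M21, in which all 37 mt genes had the deposited coordinates, and stretches shared with other transcripts from BLAST 2.17.0.

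Alternatives were 2 other scalings of the deposited values, other mRNA references, filters, pseudocount, a replicate block, eBayes without trend, each library left out and other flanks. Count models on reads (edgeR 4.0.16, DESeq2 1.42.0), mRNAs without nuclear copies and a tRNA total without mt-Tp were added after seeing the data. Named genes were the 10 tRNAs, their flanks, the other mt tRNAs, 15 nuclear genes of tRNA processing and charging, and the 5 genes most like the 10, of which 4 are named. Members, lists and tests were chosen with earlier results of these data known.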

Additional observations from a re-analysis of the deposited data

How the results depend on the processing

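On the deposited scale the count of 10 tRNAs called higher was kept under 13 of 14 alternatives. Scaling to the total of all genes left 3 (mt-Tm, mt-Tk and mt-Ts2), beside 0.549% of all genes tested. It turned mt-Tw to -0.80 and mt-Tr to -0.60 on the log2 scale. Relative to the mRNAs, the count of 6 called lower ranged from 2 to 8 when single libraries were left out, fell to 2 with DESeq2 on reads and was 5 to 7 under the other alternatives, and mt-Tm reached 0.056 with the mRNAs without nuclear copies. The call lost most often outside the left-out libraries was that of mt-Tg. The cause was not tested. The median tRNA to flank difference of -1.10 ranged from -1.28 to -0.95 over its 7 alternatives. The share of mitochondrially encoded counts on the 10 tRNAs (0.754% in remaining tissue and 0.363% in isolated mitochondria on average) was 3.70% and 2.22% without the rRNAs, and 0.162% of all counts in remaining tissue. Their share of the counts on the 22 tRNAs differed by -8.53 percentage points, isolated mitochondria minus remaining tissue, and by 7.41 without mt-Tp.

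Among all genes, 506 were called higher and 643 lower on the deposited scale. Leaving out single libraries gave 296 to 1724 higher and 176 to 3198 lower. A minimum mean of 5 gave 283 and 399, the total of all genes 38 and 6694, the upper quartile 619 and 435, edgeR on reads 940 and 1217, the same with TMM 1104 and 870, and DESeq2 1171 and 1330. Without a filter 3026 were lower, and without the trend 374. With the replicate block 1144 of all genes were lower, 10 of the 10 tRNAs were higher, and 6 were lower relative to the mRNAs. Same-numbered libraries deviated together only weakly (correlation 0.098 over 8993 genes in 2 pairs), so the numbers were not taken as a pairing.

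Depth limits the lowest members most: 1 normalized count in remaining tissue stands for about 7.05 reads, and mt-Ts2 had 6 and 5 there. A lone library left in a group was taken to vary like the other group.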

Other observations

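The level of the 10 tRNAs showed no clear relation to how often their codons occur. Over the 13 mitochondrial mRNAs the codons read by mt-Tl2 made up 11.7% of all codons and those read by mt-Ti 9.84%, whereas mt-Tg read 5.59% and mt-Tk 2.72%. mt-Tl2 and mt-Ti stood at 3.40% and 8.13% of the mean mRNA per nt in remaining tissue, and mt-Tg and mt-Tk at 322% and 152%. mt-Ts2, the lowest in level, also read the smallest share of codons among the 10, at 1.29%. Across the 10 genes, which share libraries, the correlation of codon share with log2 level was -0.05 in remaining tissue and -0.04 in isolated mitochondria (Pearson's r). Spearman's rho was 0.17 and 0.32, and 10 genes are too few to exclude a relation. Weighting codons by the counts of each mRNA left the share of mt-Tl2 between 11.4% and 11.5% in the 4 libraries. Counts of short fragments of a tRNA gene are not a measure of charged tRNA.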
